A study of Mus musculus with 12 samples.

Results

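The constitutive proteasome subunit genes are the genes that encode the standing parts of the 26S proteasome and its activators. They were taken from the probe annotation of the array by symbol: Psma1 to Psma7, Psmb1 to Psmb7, Psmc1 to Psmc6, Psmd1 to Psmd14 and Psme1 to Psme4. The immunoproteasome genes Psmb8, Psmb9 and Psmb10 were left out by this definition. Of the 19057 genes that the annotation names, 38 are members, and all 38 have at least 1 probe. The symbols Psmd5, Psmd9 and Psmd10 belong to chaperones that help assemble the base of the regulatory particle and leave it afterwards, so these 3 genes were described as a class of their own.

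RNA was measured on 12 Illumina bead arrays, with 3 arrays in each of 4 groups, all from C2C12, an established line of mouse myoblasts. The antimiR cells were given antimiR-206, which blocks miR-206, a microRNA made in skeletal muscle, and were grown for 48 h. The Day2 cells were kept in differentiation medium, which holds low horse serum in place of fetal bovine serum, for 48 h. The mimic cells were transfected with a small interfering RNA that mimics miR-206 and were cultured for 24 h. The Day1 cells were kept in differentiation medium for 24 h. Every sample carries the same lipid transfection protocol (Lipofectamine 2000). No sample is labelled as a control transfection, and neither the medium of the treated cells is stated nor whether Day1 and Day2 cells received an oligonucleotide. The labels call the antimiR and Day2 cells the beginning of differentiation, and the mimic and Day1 cells undifferentiated. They number the replicates without saying that these were separate cultures, so the p-values cover the spread among these arrays alone, and that spread may be technical.

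The proteasome is the barrel-shaped protease that breaks down ubiquitinated proteins. Its core particle is built of rings of alpha subunits (Psma genes), which gate the entry, and rings of beta subunits (Psmb genes), some of which carry the cutting sites. The regulatory particle sits on the end of the core. Its base holds a ring of ATPases (Psmc genes), which unfold the substrate, and large scaffold subunits with ubiquitin receptors, and its lid removes the ubiquitin chain. The alternative activators PA28alpha and PA28beta (Psme1 and Psme2), PA28gamma (Psme3) and PA200 (Psme4) can open the core in place of the regulatory particle. When proteasome capacity is short, the transcription factor Nrf1, encoded by Nfe2l1, raises the transcription of many subunit genes together by binding antioxidant response elements. In skeletal muscle the ubiquitin-proteasome system is known for its part in muscle protein turnover and atrophy.

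The microRNA that the mimic copies and the antimiR inhibits is shown first, because it defines the treated groups. The mature sequence of mmu-miR-206-3p, from RefSeq (build GRCm38.p6, chr1:20679055-20679076, plus strand), is printed with its seed, bases 2 to 8, in capitals.
mmu-miR-206-3p: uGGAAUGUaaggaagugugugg

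Promoter windows of 4 members that were higher in Day2 than in Day1 cells were picked as examples that hold a match to 1 of the response elements searched. Other members that were higher, lower or not called hold such matches too, as counted below. Each runs from 250 bases before to 50 bases after a RefSeq transcription start on build GRCm38.p6, and is printed 5′ to 3′ on the strand of the gene, with the match in capitals. Psme1 (chr14:55578244-55578543, plus strand) holds the letters of an interferon-stimulated response element (GAAA, any 2 bases, GAAA) on the opposite strand, starting 9 bases after the start. Psmd4 (chr3:95042565-95042864, minus strand) holds the same element on the opposite strand, starting 80 bases before the start. The window of Psme2 (chr14:55591052-55591351, minus strand) holds the letters TGANNNNGC of an antioxidant response element. Psmd8 (chr7:29180624-29180923, minus strand) holds them on the opposite strand, starting 26 bases after the start.
Psme1: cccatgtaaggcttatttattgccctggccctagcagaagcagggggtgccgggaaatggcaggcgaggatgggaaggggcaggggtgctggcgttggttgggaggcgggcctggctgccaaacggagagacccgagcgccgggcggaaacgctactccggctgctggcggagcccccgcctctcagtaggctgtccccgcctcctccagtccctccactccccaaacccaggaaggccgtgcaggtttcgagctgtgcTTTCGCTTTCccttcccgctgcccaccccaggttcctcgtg
Psmd4: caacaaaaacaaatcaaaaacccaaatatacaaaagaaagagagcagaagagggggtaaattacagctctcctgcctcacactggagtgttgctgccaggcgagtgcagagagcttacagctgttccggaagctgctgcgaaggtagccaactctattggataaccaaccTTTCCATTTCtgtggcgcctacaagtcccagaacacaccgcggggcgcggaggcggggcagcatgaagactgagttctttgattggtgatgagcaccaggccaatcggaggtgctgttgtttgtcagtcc
Psme2: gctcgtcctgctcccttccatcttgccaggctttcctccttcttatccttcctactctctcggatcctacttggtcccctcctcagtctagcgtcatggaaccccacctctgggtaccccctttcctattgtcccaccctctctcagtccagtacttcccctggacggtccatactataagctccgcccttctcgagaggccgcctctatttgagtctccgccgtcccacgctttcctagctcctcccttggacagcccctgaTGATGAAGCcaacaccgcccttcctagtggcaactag
Psmd8: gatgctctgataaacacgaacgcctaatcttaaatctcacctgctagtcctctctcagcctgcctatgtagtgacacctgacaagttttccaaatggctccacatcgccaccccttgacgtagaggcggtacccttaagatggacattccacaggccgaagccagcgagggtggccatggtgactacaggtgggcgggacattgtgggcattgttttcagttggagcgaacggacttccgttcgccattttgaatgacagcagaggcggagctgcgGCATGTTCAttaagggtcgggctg

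RefSeq gave 35 promoter windows for 32 of the 38 members. On either strand, TGANNNNGC stood in 20 of the 35 windows (57.1%), against 41.3% of all 32851 promoter windows of the same length. It stood in promoters of 4 of the 6 members that were higher in Day2 cells (Psmd1, Psmd8, Psme2 and Psme4) and of 4 of the 8 that were lower (Psma4, Psma7, Psmb5 and Psmd5). Of the 15 tested members with a window that were not called, 9 held it. The interferon-stimulated response element stood in 4 of the 35 windows (11.4%, in Psmb3, Psmd4, Psmd9 and Psme1), against 3.44% of all windows. That is 2 of the 6 higher members, 0 of the 8 lower and 2 of the 15 not called (Psmb3 and Psmd9). A link between motif and direction was not tested. The gamma-activated site TTCNNNGAA was found in the window of 1 member, Psmd2 (2.86%, against 8.3% of all windows), and the NF-Y box CCAAT in 12 windows (34.3%, against 37.4%). Matches of different motifs were counted without regard to overlap. Windows of the same gene were also counted apart where they overlap: those of Psme2 share the same antioxidant match. A match describes letters only, and binding was not measured.

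The arrays had median raw intensities of 49.5 to 63.2, with 36.7% to 40.3% of the 45281 probes above background. The Day2 arrays stood apart, with correlations of 0.866 to 0.914 with arrays of the other groups. The array labelled mimic replicate 1 correlated at 0.993 with the Day1 arrays and at 0.971 with the other mimic arrays, and mimic replicates 2 and 3 correlated at 0.994 and 0.990 with the antimiR arrays. The counts of members and the largest changes in mimic against Day1 are therefore also given without mimic replicate 1. The 7 muscle markers tested had a summed linear intensity of 4190 to 5620 on the antimiR arrays, 59000 to 67900 on the Day2 arrays, 2870 to 5530 on the mimic arrays and 2880 to 3110 on the Day1 arrays. Myog and Ckm were above background on Day2 arrays and on no array of another group. The labels' term for the antimiR cells, the beginning of differentiation, thus stands beside marker sums far below those of Day2 cells. In bulk RNA, fewer cells of a type and less RNA per cell cannot be told apart. Of the lists for other cell types, 2 of 5 osteoblast genes were tested (Bglap and Bglap2, summed intensity of 142 to 231 in antimiR, 360 to 473 in Day2, 105 to 208 in mimic and 107 to 152 in Day1 cells). From the endothelium list only Vwf was tested, and it was above background only on Day2 arrays. From the macrophage list Cd14 and Csf1r were tested, with sums of 179 to 188 in antimiR, 74.1 to 93.2 in Day2, 149 to 164 in mimic and 132 to 159 in Day1 cells. No adipocyte gene was bright enough to be tested. The part of these markers in the results below was not tested.

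Of the 38 members, 34 had a probe above background on at least 3 arrays and were tested among 10653 genes. Psma1, Psma3 and Psma6, subunits of the alpha ring, and Psmd3, a lid subunit, were not tested. Their 5 probes had raw intensities of 40.1 to 58 and were above background on 0 of the 12 arrays, so these data give no level for them. Psmc6, an ATPase of the base, was dim: its probe was above background on 3 antimiR, 1 Day2, 3 mimic and 2 Day1 arrays. The other 33 tested members were above background on all 12 arrays. The median log2 intensity of the 34 members on an array was 10.88, 10.88 and 10.90 in antimiR, 11, 11.07 and 11.09 in Day2, 10.94, 10.94 and 10.86 in mimic and 10.94, 10.94 and 10.91 in Day1 cells.

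Between 24 h and 48 h in differentiation medium the subunit genes did not move as 1 block. In Day2 against Day1 cells, 6 of the 34 members were higher and 8 lower at an adjusted p under 0.05 in limma. That is 41.2% called, against 57.1% of all genes tested, of which 28.2% were higher and 29% lower. The 6 higher members were Psmd1, Psmd4, Psmd8, Psme1, Psme2 and Psme4, that is base scaffold, lid and activator genes. The 8 lower members were Psma4, Psma7, Psmb5, Psmc5, Psmd2, Psmd5, Psmd6 and Psmd14. Values of the 2 groups did not overlap for 22 members (64.7%, against 65.9% of all genes), 7 of them higher and 15 lower in Day2 cells.

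With quantile normalization of the arrays, the differences of the members were small beside those of other genes. Their log2 changes in Day2 against Day1 ran between -1.01 and 1.01 with a median of -0.09, against a median of -0.02 over all genes. The median size of a change regardless of sign was 0.27 for the members and 0.46 for all genes. A change called at 2-fold or more was seen in 2 members, Psmd8 and Psmd5 (5.88%, against 22% of all genes). Both sat at that mark: without background correction Psmd8 was at 0.98 and Psmd5 at -0.63. Of the members, 25 (73.5%) stayed within 1.5-fold, against 58.2% of all genes. In antimiR against Day2 the 2-fold mark was passed by Psmd8 alone (16.6% of all genes), and in mimic against Day1 and antimiR against Day1 by 0 members (1.64% and 4.21% of all genes). These shares describe the arrays after quantile normalization and were not tested. With median scaling instead, the member median in Day2 against Day1 was -0.44, against -0.12 over all genes. In antimiR against Day2 it was then 0.58, against 0.31 over all genes.

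**Figure D1:**
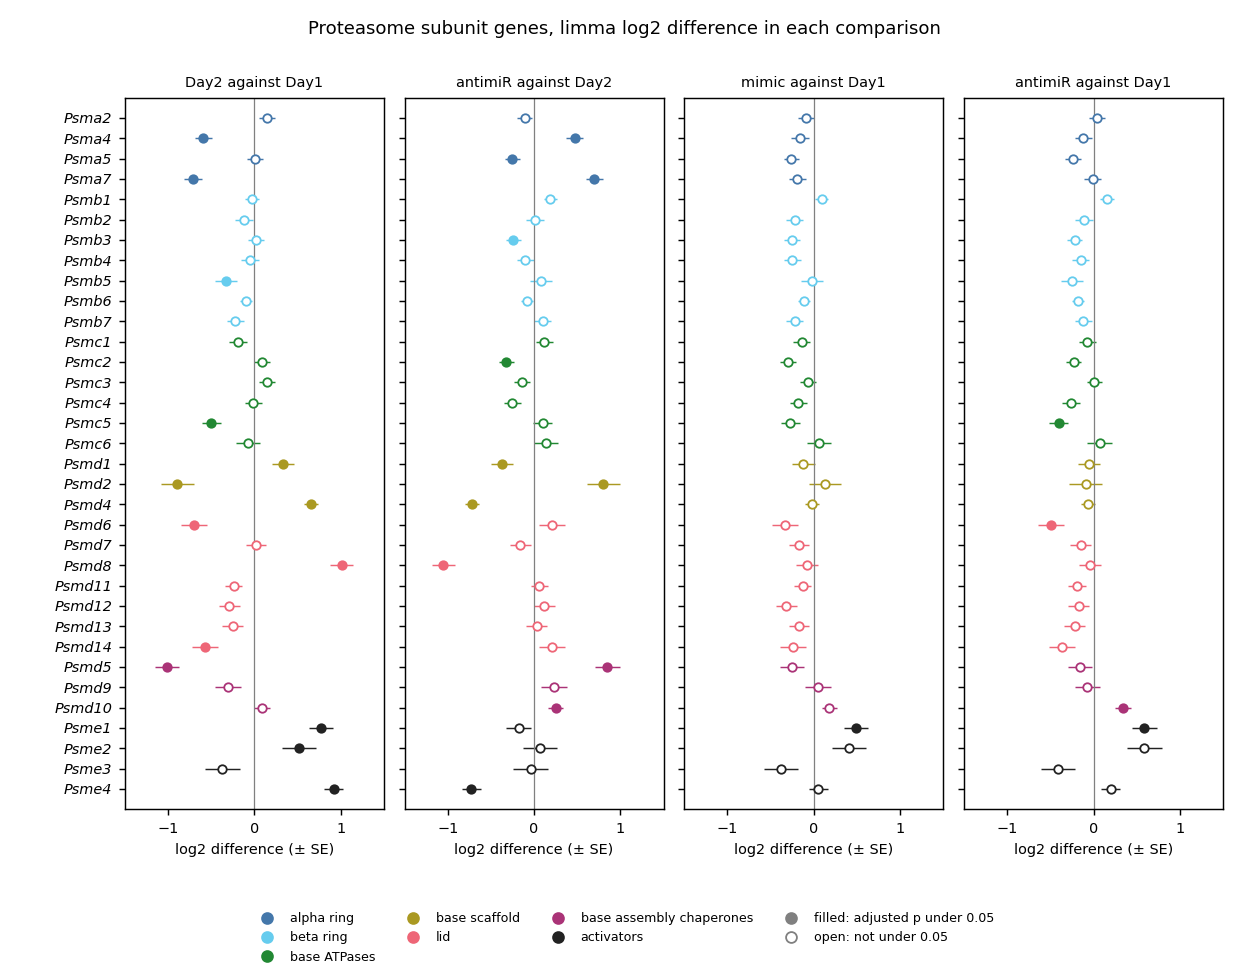
Limma log2 difference with its SE for the 34 tested members in the 4 comparisons, coloured by class, with filled points at an adjusted p under 0.05. In Day2 against Day1, 6 members lie filled to the right of 0 and 8 filled to the left, while in mimic against Day1 the single filled point is Psme1.

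**Figure D2:**
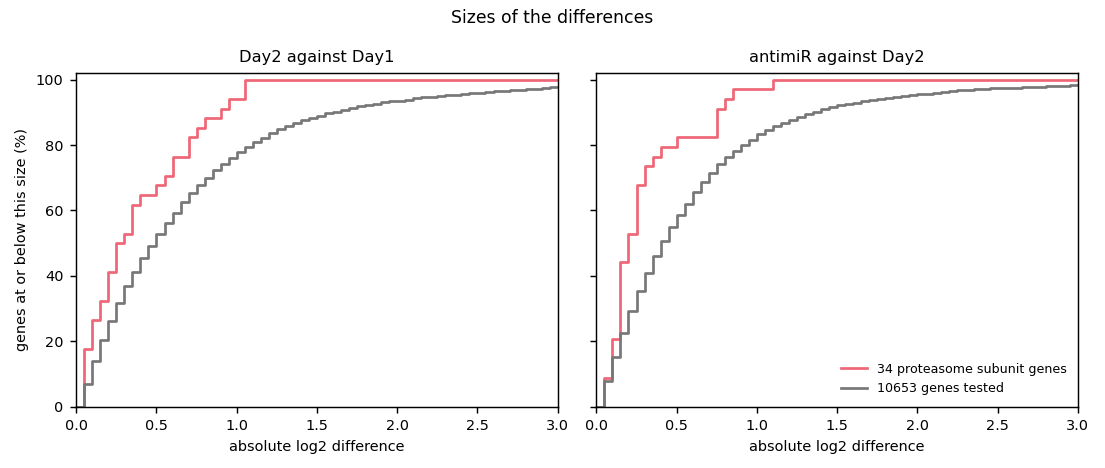
Share of genes (percent, vertical axis) whose log2 difference is at or below a given size regardless of sign (horizontal axis), for the 34 members and for all 10653 genes tested, in Day2 against Day1 and in antimiR against Day2. In both panels the curve of the members lies on or above that of all genes: in Day2 against Day1, 94.12% of members and 77.91% of all genes lie at or below a size of 1.

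Inhibition of miR-206 was compared with the Day2 group at the same culture time. In antimiR against Day2 cells, 5 members were higher (Psma4, Psma7, Psmd2, Psmd5 and Psmd10) and 7 lower (Psma5, Psmb3, Psmc2, Psmd1, Psmd4, Psmd8 and Psme4). That is 35.3% called, against 51.3% of all genes (26.5% higher and 24.9% lower). The median log2 change was 0.04 for the members and 0.03 for all genes, with a range of -1.05 to 0.85. Values did not overlap for 14 members, 6 higher and 8 lower in antimiR cells, against 61.8% of all genes. Both this comparison and that of Day2 against Day1 use the Day2 arrays, so opposite signs in them follow in part from shared arrays, and the values are set side by side below without a measure of likeness.

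The mimic was compared with the Day1 group, also at the same culture time. In mimic against Day1 cells only Psme1 was higher and 0 members were lower (2.94% called, against 8.47% of all genes, of which 4.38% were higher and 4.08% lower), while 10 members had an unadjusted p under 0.05. The log2 change was below 0 for 26 of the 34 members, with a median of -0.15, against 0 over all genes, and a range of -0.38 to 0.49. Values did not overlap for 16 members (47.1%, against 24.6% of all genes), 2 higher and 14 lower in mimic cells. Without mimic replicate 1, whose array resembled Day1, 2 members were higher (Psme1 and Psme2) and 9 lower (Psma5, Psmb2, Psmb3, Psmb4, Psmc2, Psmc5, Psmd7, Psmd12 and Psme3). That is 32.4% of the members, against 37.7% of all genes under the same removal (18.2% higher and 19.5% lower), with a member median of -0.19. The largest of these changes were 0.71 for Psme2 (adjusted p = 0.000303), 0.67 for Psme1 (adjusted p = 0.00014), -0.66 for Psme3 (adjusted p = 0.000518) and -0.45 for Psmd12 (adjusted p = 0.00174). Since all groups share 1 estimate of spread, the removal also changed comparisons without mimic arrays. Day2 against Day1 then gave 6 members higher and 13 lower (62.7% of all genes called, 30.9% higher and 31.9% lower), and antimiR against Day2 gave 6 higher and 8 lower (57.8% of all genes called, 29.8% higher and 28.1% lower).

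When antimiR cells at 48 h were set against Day1 cells at 24 h, so that treatment and time differ together, 2 members were higher (Psmd10 and Psme1) and 2 lower (Psmc5 and Psmd6). That is 11.8% called, against 22.7% of all genes (12.9% higher and 9.78% lower). The member median was -0.12, against 0.01 over all genes, and values did not overlap for 13 members, against 48.2% of all genes. Without mimic replicate 1 the counts were 3 higher and 7 lower (29.4%, against 35.2% of all genes, 18.8% higher and 16.4% lower). With median scaling of the arrays, used instead of quantile normalization, the member median in this comparison turned to 0.12, against 0.18 over all genes.

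The calls depended on the scaling between arrays. Under median scaling the median change of all genes lay at -0.12 in Day2 against Day1, -0.04 in mimic against Day1, 0.31 in antimiR against Day2 and 0.18 in antimiR against Day1. Of the members, only Psmd2 in antimiR against Day2 was then called (1.01, adjusted p = 0.0458), and 17.6% of all genes were called in Day2 against Day1. The member medians under that scaling were -0.44, -0.25, 0.58 and 0.12 in the same order of comparisons. By class, the medians in Day2 against Day1 were then -0.67 for the alpha ring, -0.53 for the beta ring and -0.33 for the ATPases. They were -0.12 for the base scaffold, -0.54 for the lid, -0.41 for the assembly chaperones and 0.41 for the activators. Of the 6 members higher in Day2 against Day1 cells, Psmd1 turned to -0.12 under median scaling, and the other 5 had changes of 0.27 to 0.71, all above 0. The 8 lower members had changes of -1.07 to -0.55. In antimiR against Day2, where all genes shifted by 0.31, the decreases of Psmd4, Psme4 and Psmd8 came to -0.08 (adjusted p = 0.938), -0.19 (adjusted p = 0.856) and -0.48 (adjusted p = 0.591). There Psma5, Psmb3, Psmc2 and Psmd1 turned to values above 0, given with each gene below, and the 5 higher members stayed at 0.74 or more.

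**Figure D3:**
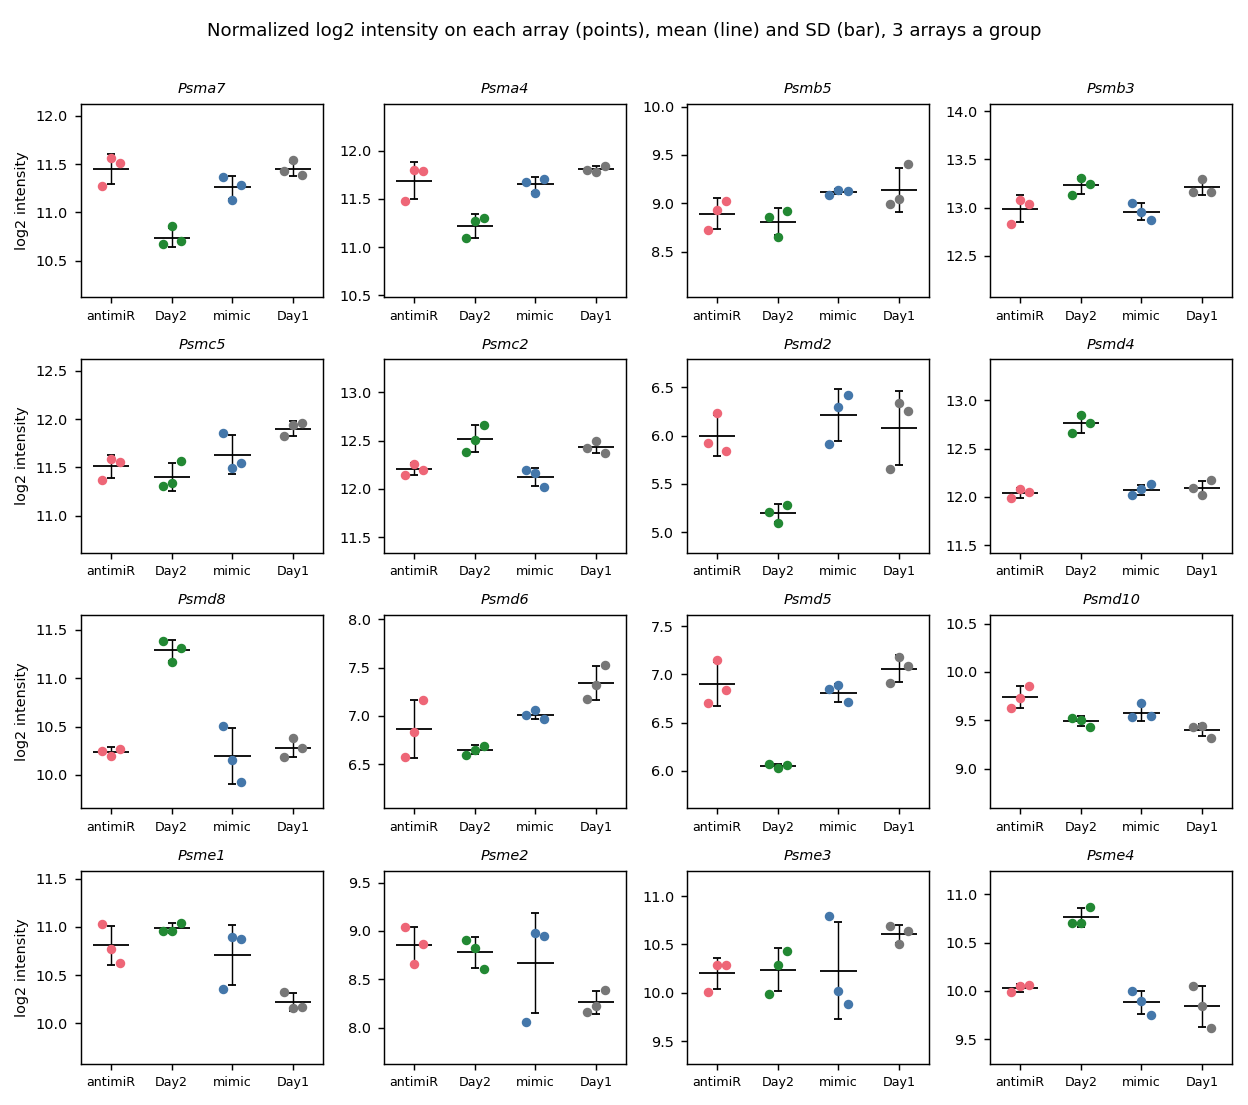
Normalized log2 intensity of 16 members on each array (points), with the group mean (line) and SD (bar) over 3 arrays; each panel spans the same number of log2 units but starts at its own level. Psmd4, Psmd8 and Psme4 are high on the Day2 arrays alone, Psma7, Psma4, Psmd2 and Psmd5 are low on them, and mimic replicate 1 lies with Day1 for Psme1, Psme2 and Psme3.

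Among the 11 tested genes of the core particle, none was higher and 3 were lower in Day2 than in Day1 cells (27.3% called, median log2 change -0.10, against 57.1% of all genes called and 29% called lower). The lower genes were the alpha subunits Psma4 and Psma7 and the beta subunit Psmb5. Set against Day2, antimiR cells had 2 core genes higher and 2 lower (36.4% called, against 51.3% of all genes). In mimic against Day1 and in antimiR against Day1 none of the 11 passed the test, against 8.47% and 22.7% of all genes. Values of 8 of the 11 did not overlap between mimic and Day1 cells, all 8 lower in mimic cells (72.7%, against 24.6% of all genes). Without mimic replicate 1, Psma5, Psmb2, Psmb3 and Psmb4 were called lower in mimic cells, where 37.7% of all genes were called.

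Psma7, the alpha4 subunit, had log2 intensities of 11.27, 11.56 and 11.51 on the antimiR arrays, 10.67, 10.86 and 10.70 on the Day2 arrays, 11.37, 11.13 and 11.28 on the mimic arrays and 11.43, 11.54 and 11.39 on the Day1 arrays. The 3 Day2 arrays were below the 9 others. The gene was 1.64-fold lower in Day2 than in Day1 cells (log2 change -0.71, SE 0.10, adjusted p = 4.92e-05) and 1.63-fold higher in antimiR than in Day2 cells (0.70, SE 0.10, adjusted p = 6.72e-05). Psma4, the alpha3 subunit, stood at 11.48, 11.80 and 11.79 in antimiR, 11.09, 11.27 and 11.30 in Day2, 11.67, 11.56 and 11.71 in mimic and 11.80, 11.78 and 11.84 in Day1 cells. Again the Day2 arrays lay below all others, with a change of -0.59 against Day1 (SE 0.10, adjusted p = 0.000237) and of 0.47 in antimiR against Day2 (SE 0.10, adjusted p = 0.00166). Of the other alpha subunits, Psma5 was lower in antimiR than in Day2 cells (-0.25, SE 0.09, adjusted p = 0.0323), but this call was lost without Day2 replicates 2 or 3 or antimiR replicates 1 or 3, each alone (adjusted p of 0.0591 to 0.127), and turned to 0.42 under median scaling. Psma2 passed no test.

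Of the 7 beta subunits, Psmb5 alone was called in Day2 against Day1 cells. It encodes beta5, which carries the chymotrypsin-like cutting site and is the subunit that the immunoproteasome replaces with the product of Psmb8. Its log2 intensities were 8.72, 8.93 and 9.02 in antimiR, 8.86, 8.65 and 8.92 in Day2, 9.09, 9.14 and 9.13 in mimic and 8.99, 9.04 and 9.41 in Day1 cells. The Day2 and Day1 values did not overlap, but the highest Day2 array lay only just below the lowest Day1 array (log2 change -0.33, SE 0.13, adjusted p = 0.039). The call was lost without Day1 replicate 3 (adjusted p = 0.201), Day2 replicate 1 (0.0555), Day2 replicate 2 (0.156) or antimiR replicate 2 (0.0516).

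Psmb3, the non-catalytic beta3 subunit, had 12.83, 13.08 and 13.04 in antimiR, 13.13, 13.31 and 13.24 in Day2, 13.05, 12.95 and 12.87 in mimic and 13.16, 13.30 and 13.16 in Day1 cells. The antimiR arrays lay below the Day2 arrays without overlap, by a small margin (-0.24, SE 0.09, adjusted p = 0.0438). This call was lost without any 1 of 7 arrays: adjusted p rose to 0.0512 without Day1 replicate 2, 0.056 without Day1 replicate 3, 0.149 without Day2 replicate 2, 0.0974 without Day2 replicate 3, 0.177 without antimiR replicate 1, 0.0616 without antimiR replicate 3 and 0.0554 without mimic replicate 2. Under median scaling the sign turned, to 0.47. With their brightest probe, the other 5 beta subunits, among them the catalytic Psmb6 (beta1) and Psmb7 (beta2), passed no test in any of the 4 comparisons, while further probes of Psmb2, Psmb6 and Psmb7 were called, as given below. With the brightest probes their changes in Day2 against Day1 ran from -0.22 for Psmb7 to -0.03 for Psmb1.

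In the base of the regulatory particle, 2 of 9 tested genes were higher and 2 lower in Day2 than in Day1 cells (44.4% called, against 57.1% of all genes). The split ran within the scaffold genes, where Psmd1 and Psmd4 were higher and Psmd2 was lower. Among the 6 ATPases 0 were higher and 1, Psmc5, was lower. Against Day2, 1 base gene was higher in antimiR cells (Psmd2) and 3 lower (Psmc2, Psmd1 and Psmd4). That is 44.4% called, against 51.3% of all genes. In mimic against Day1 cells none of the base genes passed the test, against 8.47% of all genes. Without mimic replicate 1, Psmc2 (-0.34, adjusted p = 0.0113) and Psmc5 (-0.38, adjusted p = 0.00736) were called lower there, where 37.7% of all genes were called.

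Psmd4 encodes Rpn10, a ubiquitin receptor that joins base and lid. Its log2 intensities were 11.99, 12.08 and 12.05 in antimiR, 12.66, 12.85 and 12.76 in Day2, 12.02, 12.08 and 12.13 in mimic and 12.09, 12.02 and 12.17 in Day1 cells. The Day2 arrays were high, and the 9 others lay within a narrow band. The gene was 1.58-fold higher in Day2 than in Day1 cells (0.66, SE 0.08, adjusted p = 1.3e-05) and 1.65-fold lower in antimiR than in Day2 cells (-0.72, SE 0.08, adjusted p = 7.62e-06; -0.08 and not called under median scaling). Psmd2, which encodes the scaffold subunit Rpn1, did the opposite, with 5.92, 6.23 and 5.84 in antimiR, 5.21, 5.10 and 5.28 in Day2, 5.91, 6.30 and 6.42 in mimic and 5.65, 6.34 and 6.26 in Day1 cells. Day2 arrays lay below all others (-0.89 against Day1, SE 0.19, adjusted p = 0.00136), and antimiR cells were higher than Day2 cells by 0.80 (SE 0.19, adjusted p = 0.00345). The gene is dim, and the size of both changes depended on the background step: without background correction they were -0.43 and 0.37, and with the authors' deposited values -0.35 and 0.30, still called.

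Psmd1, which encodes the other large scaffold subunit Rpn2, is less certain. Its brightest probe was higher in Day2 than in Day1 cells (0.33, SE 0.13, adjusted p = 0.0447), although the values of the groups overlapped, and lower in antimiR than in Day2 cells (-0.37, SE 0.13, adjusted p = 0.027). Under median scaling both signs turned, to -0.12 and 0.32. The first call was lost without any 1 of Day1 replicates 1 and 3, Day2 replicates 2 and 3 and antimiR replicates 2 and 3 (adjusted p of 0.0519 to 0.196), and the second without any 1 of Day2 replicates 2 and 3 and antimiR replicates 1 and 2 (adjusted p of 0.0668 to 0.131). A dimmer probe of the same gene was lower in Day2 cells, as described below.

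Psmc5 encodes the ATPase Rpt6. It had 11.37, 11.59 and 11.56 in antimiR, 11.31, 11.34 and 11.57 in Day2, 11.86, 11.49 and 11.55 in mimic and 11.82, 11.94 and 11.96 in Day1 cells. All Day2 and all antimiR arrays lay below all Day1 arrays, and mimic replicate 1 lay within the Day1 range while the other mimic arrays did not. The change was -0.50 in Day2 against Day1 (SE 0.11, adjusted p = 0.002) and -0.40 in antimiR against Day1 (SE 0.11, adjusted p = 0.0262). The second of these calls was lost without Day1 replicate 2 (adjusted p = 0.0889), Day1 replicate 3 (0.0956), antimiR replicate 1 (0.115) or antimiR replicate 3 (0.051). The mean over both probes gave -0.35 there (adjusted p = 0.0519), and the second probe alone gave -0.31 (adjusted p = 0.13). Psmc2, the ATPase Rpt1, had 12.14, 12.26 and 12.19 in antimiR, 12.38, 12.51 and 12.66 in Day2, 12.19, 12.16 and 12.02 in mimic and 12.42, 12.49 and 12.37 in Day1 cells. It was lower in antimiR than in Day2 cells by the test (-0.32, SE 0.09, adjusted p = 0.00869), but its mean over both probes gave -0.01 (adjusted p = 0.932) and median scaling gave 0.35. The remaining ATPases Psmc1, Psmc3, Psmc4 and the dim Psmc6 passed no test.

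Of 7 tested lid genes, 1 was higher (Psmd8) and 2 were lower (Psmd6 and Psmd14) in Day2 than in Day1 cells, with a median of -0.25 (42.9% called, against 57.1% of all genes). Values did not overlap for 6 of the 7, 5 of them lower in Day2 cells (85.7%, against 65.9% of all genes). In antimiR against Day2 cells Psmd8 was lower and no lid gene was higher (14.3% called, against 51.3% of all genes). In mimic against Day1 cells no lid gene passed the test with its brightest probe, against 8.47% of all genes, with changes of -0.33 to -0.08. Without mimic replicate 1, Psmd7 (-0.31, adjusted p = 0.0228) and Psmd12 (-0.45, adjusted p = 0.00174) were called lower there, where 37.7% of all genes were called.

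Psmd8 encodes the lid subunit Rpn12, which in yeast is the last subunit to join the lid. Its log2 intensities were 10.25, 10.19 and 10.27 in antimiR, 11.39, 11.17 and 11.31 in Day2, 10.51, 10.15 and 9.93 in mimic and 10.18, 10.38 and 10.28 in Day1 cells. Day2 arrays stood clear above the other 9. The gene was 2.01-fold higher in Day2 than in Day1 cells (1.01, SE 0.13, adjusted p = 1.51e-05) and 2.08-fold lower in antimiR than in Day2 cells (-1.05, SE 0.13, adjusted p = 1.28e-05), and antimiR and Day1 cells differed by -0.04 (adjusted p = 0.847). Under median scaling the 2 changes were 0.71 and -0.48, neither of them called.

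Psmd6 encodes the lid subunit Rpn7. It had 6.57, 6.83 and 7.17 in antimiR, 6.60, 6.65 and 6.69 in Day2, 7.01, 7.06 and 6.97 in mimic and 7.18, 7.32 and 7.53 in Day1 cells. Day1 arrays were the highest, and the antimiR arrays spread over the widest range. Day2 against Day1 gave -0.70 (SE 0.15, adjusted p = 0.00127) and antimiR against Day1 gave -0.49 (SE 0.15, adjusted p = 0.0344). Without background correction these were -0.48 and -0.34, and with the authors' deposited values -0.42 and -0.30, all called. The second call was lost without Day1 replicate 2 (adjusted p = 0.0894), Day1 replicate 3 (0.141), Day2 replicate 2 (0.05), antimiR replicate 1 (0.16) or antimiR replicate 2 (0.0864). Psmd14 encodes Rpn11, the enzyme that cuts the ubiquitin chain off the substrate, and it was lower in Day2 than in Day1 cells (-0.57, SE 0.15, adjusted p = 0.00533). With their brightest probes the other lid genes Psmd7, Psmd11, Psmd12 and Psmd13 passed no test, with changes of -0.29 to 0.02 in Day2 against Day1 cells.

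Of the 3 assembly chaperones, Psmd5 was lower in Day2 than in Day1 cells. Its product, known as S5b, holds the ATPase Rpt1 while the base is put together. It had 6.70, 7.15 and 6.84 in antimiR, 6.07, 6.03 and 6.06 in Day2, 6.85, 6.89 and 6.71 in mimic and 6.91, 7.18 and 7.09 in Day1 cells. The Day2 arrays were low and close together, and no other array came near them. The gene was 2.01-fold lower in Day2 than in Day1 cells (-1.01, SE 0.14, adjusted p = 2.79e-05) and 1.8-fold higher in antimiR than in Day2 cells (0.85, SE 0.14, adjusted p = 0.000161). The size rests on the background step for this dim gene: Day2 against Day1 gave -0.74 with a normexp offset of 50, -0.63 without background correction and -0.53 with the authors' deposited values, and antimiR against Day2 gave 0.61, 0.52 and 0.44, all called.

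Psmd10 encodes gankyrin, which holds the ATPase Rpt3 and also binds cell-cycle regulators. It had 9.63, 9.73 and 9.86 in antimiR, 9.52, 9.50 and 9.43 in Day2, 9.53, 9.68 and 9.54 in mimic and 9.43, 9.44 and 9.32 in Day1 cells. The antimiR arrays lay above the Day2 and the Day1 arrays without overlap, by 0.25 (SE 0.09, adjusted p = 0.0364) and 0.34 (SE 0.09, adjusted p = 0.0217). Against Day2 the call was lost without Day2 replicate 2 (adjusted p = 0.0707), Day2 replicate 3 (0.109), antimiR replicate 2 (0.0784) or antimiR replicate 3 (0.156). Against Day1 it was lost without Day1 replicate 2 (adjusted p = 0.0592), Day1 replicate 3 (0.0902), antimiR replicate 2 (0.0529) or antimiR replicate 3 (0.0848). Psmd9, the third chaperone, passed no test with its brightest probe (-0.30 in Day2 against Day1, adjusted p = 0.103).

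Of the 4 activators, 3 were higher in Day2 than in Day1 cells and Psme3 was not called, against 28.2% of all genes called higher. In levels by array, Psme4 was high on the Day2 arrays only, while Psme1 and Psme2 lay above the Day1 arrays on the antimiR arrays and on mimic arrays 2 and 3 as well.

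Psme4 encodes PA200, a large single-chain cap known in mouse for its part in the breakdown of histones during sperm development. It had 9.99, 10.05 and 10.06 in antimiR, 10.70, 10.70 and 10.87 in Day2, 10.00, 9.90 and 9.75 in mimic and 10.05, 9.84 and 9.62 in Day1 cells. The Day2 arrays lay above all others. The gene was 1.9-fold higher in Day2 than in Day1 cells (0.92, SE 0.11, adjusted p = 1.08e-05) and 1.65-fold lower in antimiR than in Day2 cells (-0.73, SE 0.11, adjusted p = 0.000118; -0.19 and not called under median scaling).

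Psme1 encodes PA28alpha, which with PA28beta forms an interferon-inducible cap linked to antigen processing. It had 11.03, 10.77 and 10.63 in antimiR, 10.96, 10.96 and 11.04 in Day2, 10.36, 10.90 and 10.87 in mimic and 10.33, 10.16 and 10.17 in Day1 cells. All Day1 arrays lay below all arrays of the other groups, and mimic replicate 1 was the closest to them. Day2 cells were higher than Day1 cells by 0.77 (SE 0.14, adjusted p = 0.000349), antimiR cells by 0.59 (SE 0.14, adjusted p = 0.0127) and mimic cells by 0.49 (SE 0.14, adjusted p = 0.0485). The antimiR and Day2 cells differed by -0.18 (adjusted p = 0.321).

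The mimic call of Psme1 sits at the threshold: it was lost without any 1 of 10 arrays (every Day1 and Day2 array, mimic replicates 2 and 3, and antimiR replicates 2 and 3), with adjusted p of 0.0607 to 0.209, and was kept without mimic replicate 1 (change 0.67) or antimiR replicate 1. In those 10 runs 28 to 673 of all genes were called in mimic against Day1, against 902 with all arrays. The antimiR call of Psme1 against Day1 was lost without Day1 replicate 2 (adjusted p = 0.0552), Day1 replicate 3 (0.0562) or antimiR replicate 1 (0.065). Of all genes, 869, 711 and 647 were called in antimiR against Day1 in these 3 runs, against 2413 with all arrays. Both probes of Psme1 were higher in Day2 than in Day1 cells, by 0.77 and 0.65.

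Psme2 encodes PA28beta and lies beside Psme1 on chromosome 14 of GRCm38.p6, with 1 annotated gene, Emc9, between them. It had 9.04, 8.66 and 8.86 in antimiR, 8.91, 8.82 and 8.61 in Day2, 8.06, 8.98 and 8.95 in mimic and 8.16, 8.22 and 8.39 in Day1 cells. Mimic replicate 1 was below all other arrays, while mimic replicates 2 and 3 lay among the highest. Day2 cells were higher than Day1 cells by 0.52 (SE 0.20, adjusted p = 0.0429). That call was lost without Day1 replicate 1 (adjusted p = 0.116), Day1 replicate 2 (0.101), Day1 replicate 3 (0.0553), Day2 replicate 1 (0.128), Day2 replicate 2 (0.0996) or antimiR replicate 3 (0.0557). The antimiR and mimic changes against Day1 were 0.59 (adjusted p = 0.0519) and 0.41 (adjusted p = 0.202). Without mimic replicate 1, the Day2 change of 0.52 had an SE of 0.11 (adjusted p = 0.00062). Under that removal the antimiR change of 0.59 (adjusted p = 0.000594) and the mimic change of 0.71 (adjusted p = 0.000303) were also called. With only the 6 arrays compared the Day2 adjusted p was 0.000879, and with no detection filter it was 0.0702. RefSeq also lists Psme2b, a protein-coding copy of this gene, whose transcripts its probe may also bind, so the level of Psme2 is uncertain.

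Psme3 encodes PA28gamma, a nuclear cap that degrades cell-cycle proteins without ubiquitin. It had 10.01, 10.29 and 10.29 in antimiR, 9.99, 10.29 and 10.43 in Day2, 10.80, 10.02 and 9.88 in mimic and 10.69, 10.50 and 10.64 in Day1 cells. Day1 arrays and mimic replicate 1 were the highest. No comparison passed the test with all arrays: the changes were -0.37 in Day2 (adjusted p = 0.124), -0.38 in mimic (adjusted p = 0.221) and -0.41 in antimiR cells (adjusted p = 0.145), each against Day1. Without mimic replicate 1 the mimic change of Psme3 was -0.66 (adjusted p = 0.000518). Under that removal Psme3 was also called lower in Day2 (-0.37, adjusted p = 0.00791) and in antimiR cells (-0.41, adjusted p = 0.00816), each against Day1.

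For 16 of the tested members the array holds several probes above background, 37 in all, which gives a second reading of the same gene. In Day2 against Day1, all probes of a gene had the same sign for 12 of the 16 genes, and in antimiR against Day2 for 9. The counts were 13 for mimic against Day1 and 15 for antimiR against Day1. The probes of Psma7 (-0.71 and -0.80), Psmd2 (both -0.89), Psmc5 (-0.50 and -0.72) and Psmd6 (-0.70 and -0.54) were all called lower in Day2 cells. For Psmd1 alone 2 probes were called in opposite directions: the pair of bright probes gave 0.33 and 0.33 (adjusted p = 0.0407 and 0.0451), and the third gave -0.31 (adjusted p = 0.0361).

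Psmd7, which encodes the lid subunit Rpn8, had the widest spread. Its brightest probe gave 0.02, and its other probes gave -0.59 (adjusted p = 0.012) and -0.95 (adjusted p = 0.00243) in Day2 against Day1. The last of these was also lower in mimic (-1.02, adjusted p = 0.0285) and in antimiR cells (-1.05, adjusted p = 0.00913), each against Day1. In Day2 against Day1 the second probe of Psmc2 gave -0.52 (adjusted p = 0.0028), that of Psmd9 gave -0.83 (adjusted p = 0.00101) and 1 further probe of Psmd10 gave -0.41 (adjusted p = 0.00642), where the brightest probes of these genes were not called. The same held for the beta subunits: the second probes of Psmb2 and Psmb6 gave -0.36 (adjusted p = 0.00796) and -0.26 (adjusted p = 0.011), and 1 of 3 further probes of Psmb7 gave -0.47 (adjusted p = 0.0029). AntimiR cells were higher than Day2 cells by 0.57 with that probe of Psmb2 (adjusted p = 0.00035) and by 0.43 with that probe of Psmb7 (adjusted p = 0.00699). When the mean over the probes stood for each gene, 5 members were higher and 14 lower in Day2 against Day1, with a member median of -0.2. That is 55.9% called, against 56.6% of all genes under the same setting. The median spread between the probes of a gene was 0.19. Pseudogenes of Psma5, Psmb5, Psmb6 and Psmb7 are annotated elsewhere in the genome, so their probes may also read related transcripts.

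**Figure D4:**
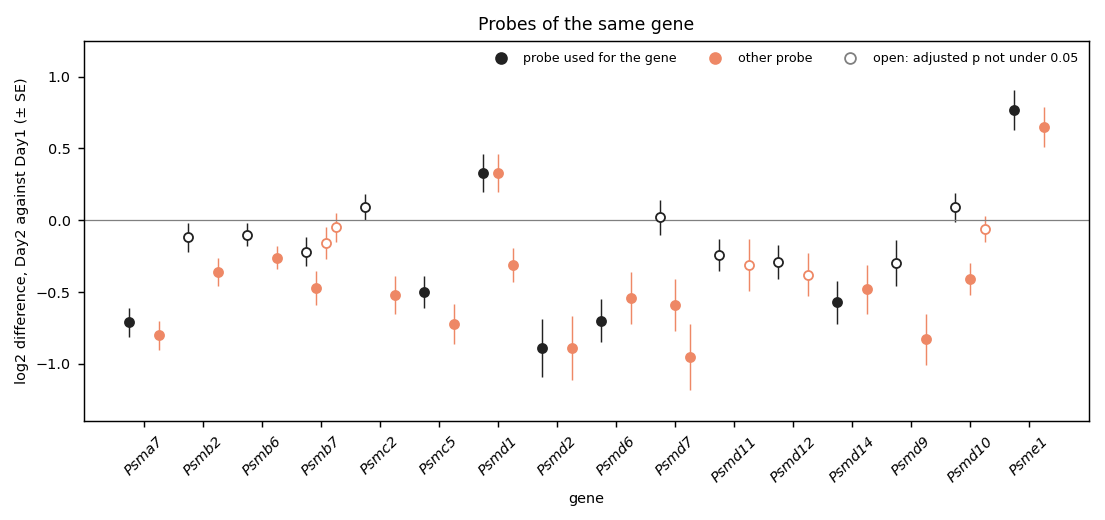
Log2 difference of Day2 against Day1 with its SE for each of the 37 probes of 16 members with several probes above background; black marks the probe used for the gene, orange the others, and open points an adjusted p not under 0.05. The 3 probes of Psmd1 lie on both sides of 0, and those of Psmd7 spread over 0.97 log2 units.

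Genes that make, vary or control the proteasome were read from lists outside the members. Their mimic changes include mimic replicate 1, so a gene not called there may still differ on the other mimic arrays. The immunoproteasome genes encode interferon-inducible beta subunits that replace the constitutive ones. Psmb8 had 7.97, 7.44 and 7.52 in antimiR, 8.67, 8.80 and 8.55 in Day2, 5.90, 7.79 and 7.72 in mimic and 6.15, 5.98 and 5.89 in Day1 cells. Mimic replicate 1 lay with the Day1 arrays and apart from the other mimic arrays, as for Psme1 and Psme2. Of the 3 genes, 2 were higher and 0 lower in Day2 against Day1 (66.7% called, against 57.1% of all genes). Psmb8 was higher by 2.67 (SE 0.37, adjusted p = 3.11e-05) and Psmb9 by 0.61 (SE 0.21, adjusted p = 0.0216). Psmb8 (-1.03) and Psmb10 (-0.78) were lower in antimiR than in Day2 cells, and none was higher (66.7% called, against 51.3% of all genes). Psmb10 was lower in mimic than in Day1 cells (-0.72, SE 0.15, adjusted p = 0.0228; 33.3% called, against 8.47% of all genes). The mimic change of Psmb8 was 1.13 and not called (SE 0.37, adjusted p = 0.0672). In antimiR against Day1 Psmb8 was higher (1.64) and Psmb10 lower (-0.75), that is 66.7% called, against 22.7% of all genes. Under median scaling Psmb8 and Psmb9 were still called in Day2 against Day1 (2.42 and 0.59), and Psmb8 in antimiR against Day1 (1.86, adjusted p = 0.0318). The Psmb8 call in antimiR against Day2 was lost under it (-0.56, adjusted p = 0.522), and so was every call of Psmb10. Psmb10 then stood at -0.8 in mimic against Day1, -0.32 in antimiR against Day2 (adjusted p = 0.75) and -0.49 in antimiR against Day1 (adjusted p = 0.975). The Psmb9 call was lost without Day1 replicates 1 or 2 or Day2 replicates 2 or 3, each alone (adjusted p of 0.0552 to 0.105). The Psmb8 call in antimiR against Day2 was lost without any Day2 array or antimiR replicates 2 or 3 (0.0547 to 0.0975), its call against Day1 without antimiR replicate 1 (0.055), and the mimic call of Psmb10 without Day1 replicates 2 or 3 or mimic replicates 2 or 3 (0.104 to 0.118).

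The chaperones that assemble the core, Pomp and the Psmg genes, were all lower in Day2 than in Day1 cells, 4 of the 4 tested of 5 on the list, against 29% of all genes called lower. The changes were -0.95 for Psmg1 (SE 0.11, adjusted p = 8.14e-06), -0.92 for Psmg3, -0.65 for Psmg2 and -0.22 for Pomp. Psmg1 (0.93, adjusted p = 1.32e-05) and Psmg3 (0.40) were higher in antimiR than in Day2 cells, and none was lower (50% called, against 51.3% of all genes). In mimic against Day1 Psmg3 was lower (-0.49, adjusted p = 0.039), that is 25% called, against 8.47% of all genes. Psmg2 just missed the threshold there (-0.42, adjusted p = 0.0502). In antimiR against Day1 Psmg2 (-0.54) and Psmg3 (-0.52) were lower, that is 50% called, against 22.7% of all genes. Under median scaling the 4 changes in Day2 against Day1 kept their sign, with a median of -1 and adjusted p of 0.138 to 0.529. None of the calls in the other comparisons was kept under it either. Pomp lost its call without any 1 of 9 arrays (all except mimic replicate 1 and antimiR replicates 1 and 2, adjusted p of 0.051 to 0.109). The mimic call of Psmg3 was likewise lost without any 1 of 9 arrays (all except Day2 replicate 1, mimic replicate 1 and antimiR replicate 1, adjusted p of 0.0509 to 0.18). Psmg3 also lost its antimiR call against Day2 without Day2 replicate 3 or antimiR replicate 3 (0.08 to 0.09) and its call against Day1 without Day1 replicate 3 or antimiR replicates 1 or 2 (0.0508 to 0.0615). Psmg2 lost its call against Day1 without antimiR replicate 1 (0.0557).

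Proteins that bind the proteasome without being counted as members gave 2 higher and 4 lower of 9 tested in Day2 against Day1 (66.7% called, against 57.1% of all genes). The deubiquitinases Uchl5 (-0.99, SE 0.16, adjusted p = 0.000112) and Usp14 (-0.74) and the lid peptide Sem1 (-0.46) were lower, and the ubiquitin ligase Ube3c was higher (0.55). The shuttle factors Rad23b and Ubqln1 were called at -0.34 and at 0.35. Compared with Day2 in antimiR cells, Uchl5 (0.70), Rad23b (0.37) and Sem1 (0.30) were higher and Ube3c (-0.73) was lower (44.4% called, against 51.3% of all genes). In mimic against Day1 none of the 9 was called, against 8.47% of all genes. Ubqln4 just missed the threshold there (-0.53, adjusted p = 0.0508). It had 8.53, 7.99 and 7.90 in mimic and 8.55, 8.80 and 8.67 in Day1 cells. In antimiR against Day1 Ubqln4 was lower (-0.51), that is 11.1% called, against 22.7% of all genes. None of these calls was kept under median scaling. With 1 array left out, Rad23b lost its Day2 call without Day1 replicates 1 or 3 or Day2 replicate 3 (adjusted p of 0.0561 to 0.0768) and its antimiR call without antimiR replicate 3 (0.0703). Sem1 lost its antimiR call without Day2 replicate 3 or antimiR replicate 2 (0.0529 to 0.0572), and Ubqln4 without Day1 replicates 2 or 3 or antimiR replicates 1 or 2 (0.0735 to 0.127).

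Of 5 tested regulators of proteasome genes, Nfe2l1 had the largest change. It had 10.29, 10.08 and 10.02 in antimiR, 12.36, 12.38 and 12.56 in Day2, 10.21, 10.29 and 10.18 in mimic and 10.54, 10.21 and 10.22 in Day1 cells. Day2 arrays stood far above the other 9. It was 4.32-fold higher in Day2 than in Day1 cells (2.11, SE 0.11, adjusted p = 2.87e-09) and 4.94-fold lower in antimiR than in Day2 cells (-2.30, SE 0.11, adjusted p = 1.37e-09). These values are transcript levels of Nfe2l1; its protein is controlled by processing and turnover, which arrays do not read. Maff, a partner of such factors, was higher in Day2 than in Day1 cells (0.62), and Nfe2l2 (-0.67) and Keap1 (-0.61), the adaptor that marks the Nfe2l2 protein for degradation, were lower. With Nfe2l1, 80% of the 5 were called, against 57.1% of all genes. Keap1 was higher (0.51) and Maff (-1.06) and Mafg (-0.39) were lower in antimiR than in Day2 cells. With Nfe2l1 that is 80% called, against 51.3% of all genes. In mimic or antimiR against Day1 none of the 5 was called, against 8.47% and 22.7% of all genes. Under median scaling Nfe2l1 was still called, at 1.74 (adjusted p = 0.00798) and -1.66 (adjusted p = 0.0142), the other regulators were not, and Mafg turned to 0.12. The call of Nfe2l2 was lost without Day1 replicates 2 or 3 or Day2 replicates 2 or 3 (0.0614 to 0.112). That of Maff in Day2 against Day1 was lost without Day1 replicate 2 or Day2 replicate 1 (0.0698 to 0.0767), and that of Mafg without Day2 replicates 2 or 3 or antimiR replicates 2 or 3 (0.0594 to 0.112).

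Of the 4 genes for the ubiquitin-activating enzyme Uba6 and for the p97 unfoldase and its cofactors, Uba6 (0.52) and Vcp (0.40), which encodes p97, were higher in Day2 than in Day1 cells and the cofactor Ufd1 (-0.49) was lower. That is 75% called, against 57.1% of all genes. In antimiR against Day2 Ufd1 was higher (0.63), and Uba6 (-0.74) and Vcp (-0.28) were lower (75% called, against 51.3% of all genes). In mimic against Day1 and antimiR against Day1 none was called, against 8.47% and 22.7% of all genes. None of these calls was kept under median scaling, where Vcp in antimiR against Day2 turned to 0.33, and that call was also lost without Day2 replicates 2 or 3 or antimiR replicates 1 or 2 (adjusted p of 0.056 to 0.112).

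**Figure D5:**
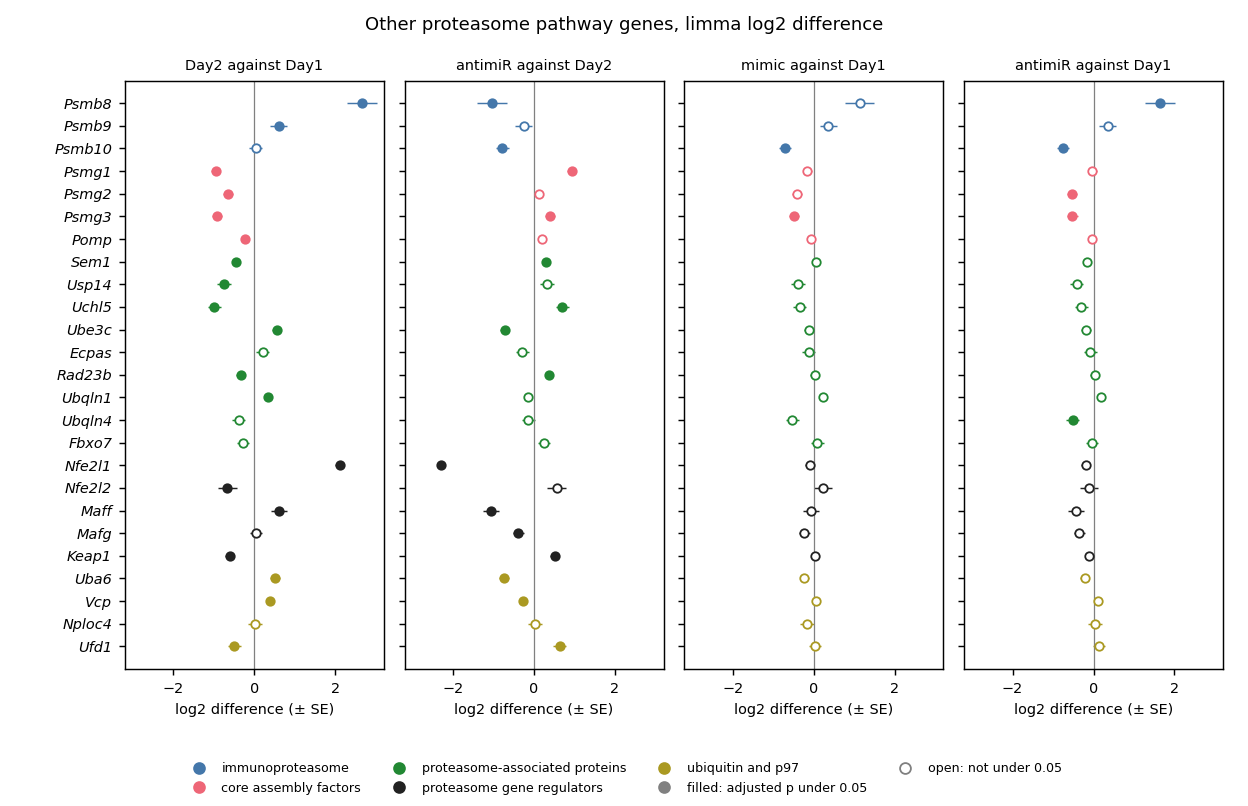
Limma log2 difference with its SE for 25 tested genes of the immunoproteasome, core assembly, associated-protein, regulator and ubiquitin or p97 lists, with filled points at an adjusted p under 0.05. Nfe2l1 lies at 2.11 in Day2 against Day1 and at -2.30 in antimiR against Day2, and the 4 core assembly genes all lie filled to the left of 0 in Day2 against Day1.

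Across the genome the 38 members lie on 15 chromosomes of GRCm38.p6, with at most 8 on 1 chromosome (chromosome 11).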

How the data were processed

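For each of 12 arrays the authors deposited scanner values, a linear intensity for every probe, whose header records no background subtraction or normalization. Its detection column, headed as a p-value per the file headers, holds a score that grows with intensity, and 1 minus it served as the detection p. A second table deposited by the authors gives processed log2 values with a median of 6.43 per array. The tool lumi, without a version, is named per the submitters' processing notes. Ranks of Day2 replicate 2 in the scanner table were those of replicate 3 in the processed one and the reverse (Spearman rho 1, against 0.882 between like numbers), so these replicate numbers are exchanged in 1 of the tables. At most 0.00775 of the raw values (as a fraction) were identical between any pair of arrays, and each array was kept as its own sample.

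Intensities were corrected with the normexp model of limma 3.58.1 (R 4.3.3; offset 16, controls inferred from detection), quantile-normalized and taken to log2. Probes with a detection p under 0.05 on at least 3 arrays were kept (19809 of 45281). Of all probes, 34885 carry 1 gene symbol in the platform annotation, 18 several and 10378 none, and updating symbols by gene identifier changed 0. The brightest kept probe stood for its gene, which gave 10653 genes. One limma model with 4 group means and an intensity trend (8 residual degrees of freedom, prior 5.36) gave log2 changes with SE and two-sided p-values, Benjamini-Hochberg adjusted over the 10653 genes, with a threshold of 0.05, and was checked on simulated data. The number of arrays, 3 a group, limits the precision. Levels were not compared between genes, since probes differ in brightness.

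The members and the gene lists were chosen with earlier results of these data known. Per-array values are printed for all 4 activators and, in each other class, for the 2 members past the threshold with the largest change in Day2 against Day1 and the 1 with the largest in each other comparison. From the other lists, up to 4 genes past the threshold per comparison are named. Motifs were searched in RefSeq promoter windows on both strands. Alternatives were median scaling, no background correction, an offset of 50, the authors' values, no detection filter, the mean over probes, all probes, only the 6 arrays compared, array weights, no trend, a replicate block and leaving out each array.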

Additional observations from a re-analysis of the deposited data

How the results depend on the processing

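Of 276 counts and medians of members recomputed under 23 alternatives, 210 stayed within 1.5 times the main count or within 0.0358 (1 SD between arrays) of the main median, and 66 did not. Of 621 values for the 27 calls of the members given by array, 528 kept direction and side of the threshold, 91 kept direction only and 2 reversed, both in antimiR against Day2 under median scaling (Psmb3 at 0.47 and Psmc2 at 0.35). Median scaling gave 0 members higher and 0 lower in Day2 against Day1 (median -0.44), 0 and 0 in mimic against Day1 (-0.25), 1 and 0 in antimiR against Day2 (0.58), and 0 and 0 in antimiR against Day1 (0.12); it called 1879, 25, 1793 and 201 of all genes in that order. The count of members higher in mimic against Day1 was 0 with the authors' values (7.88% of all genes called) and the mean over probes (6.78%). It was also 0 with no detection filter, all probes, only the 6 arrays compared and no variance trend. Array weights gave 4 higher, 15 lower and a median of -0.21 there (46.1% of all genes called). They also gave 8 higher in antimiR against Day2 (64.5% of all genes called), and 4 higher and 8 lower in antimiR against Day1 (41.2%). Members lower in Day2 against Day1 numbered 14 with the mean over probes (median -0.2, 56.6% of all genes called). With only the 6 arrays they numbered 13 there (61.4% of all genes called). Without the detection filter they numbered 4 in antimiR against Day2 (26.6% of all genes called). In antimiR against Day1 they numbered 1 without the filter (8.97% of all genes called), 1 with the mean over probes (21.8%) and 4 with only the 6 arrays (35.6%). Of all genes in mimic against Day1, 902 were called in the main model, 3 with only the 6 arrays, 183 without the filter, 590 without the trend, 53 with the block and 4909 with array weights; in antimiR against Day1, 2413 were called, 3793 with only the 6 arrays and 4384 with array weights. With all kept probes tested, 10598 probes were called in Day2 against Day1, 9371 in antimiR against Day2 and 3841 in antimiR against Day1, among 19809. For array weights and median scaling the cause was not tested.

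With 1 array left out, Day2 against Day1 gave 4 to 6 members higher, 7 to 13 lower (13 without mimic replicate 1) and medians of -0.12 to -0.07. Mimic against Day1 gave 0 to 2 higher, 0 to 9 lower (2 and 9 without mimic replicate 1, 1 lower without Day2 replicate 1) and medians of -0.19 to -0.12. AntimiR against Day2 gave 4 to 6 higher, 4 to 8 lower (4 without Day2 replicate 2, Day2 replicate 3 or antimiR replicate 1) and medians of -0.02 to 0.10. AntimiR against Day1 gave 0 to 3 higher (0 without Day1 replicate 2 or 3), 0 to 7 lower (7 without mimic replicate 1, 0 without Day1 replicate 2, Day1 replicate 3 or antimiR replicate 1) and medians of -0.16 to -0.05. Of all genes, 8.16%, 6.67% and 6.07% were called there without Day1 replicate 2, Day1 replicate 3 and antimiR replicate 1, against 22.7% with all arrays. Over these runs the share of all genes called ran from 51.7% to 62.7% in Day2 against Day1 and from 0.263% to 37.7% in mimic against Day1. In antimiR against Day2 it ran from 43.2% to 57.8%, and in antimiR against Day1 from 6.07% to 35.2%.

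Groups share replicate numbers. Correlations of the deviations of same-numbered arrays ran between -0.141 and 0.167, and 4 of 12 were the best for their array, so the numbers were not taken as pairs. With the replicate block, 12 members were called in Day2 against Day1 (35.3%, against 55.1% of all genes) and 0 in mimic against Day1 (against 0.498% of all genes). It gave 9 in antimiR against Day2 (26.5%, against 48.3% of all genes) and 3 in antimiR against Day1 (1 lower; 8.82%, against 16.6% of all genes). Of the calls given by array, 5 were lost with it: Psme2 in Day2 against Day1 (adjusted p = 0.0645), Psme1 in mimic against Day1 (0.095), Psmb3 and Psmd10 in antimiR against Day2 (0.0542 and 0.058) and Psmc5 in antimiR against Day1 (0.0507). Arrays give no read depth; signal over background limits Psmc6 and the 4 members not tested.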
